A study of Arabidopsis thaliana with 10 samples.

Results

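The comparison described here sets hls1 seedlings directly against pifq ein3 eil1 seedlings of Arabidopsis thaliana, gene by gene. Of 33559 genes listed, the 18060 with 1 or more RPKM (a read count normalised for gene length and library size) in at least 1 of the 2 genotypes were compared. The quantity reported is the log2 difference, log2(RPKM + 1) in hls1 less log2(RPKM + 1) in pifq ein3 eil1, so positive values mean higher in hls1. The hls1 mutant carries a lesion in HOOKLESS1. In pifq ein3 eil1, lesions in PIF1, PIF3, PIF4 and PIF5 (together pifq) are combined with lesions in EIN3 and EIL1. All genotypes were in the Col-0 background, and pifq, ein3 eil1 and wild-type Col-0 are cited below for context. The sources used here name no alleles and do not say whether each line descends from 1 plant. Seedlings grew for 3 days in darkness at 22 °C, received no treatment, and were harvested without roots. The mRNA libraries numbered 2 per genotype, 4 of the 10 in the series for these 2 genotypes.

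A seedling that germinates under soil is etiolated: the hypocotyl elongates, the cotyledons stay closed and pale, and the shoot tip bends into an apical hook. PIFs are basic helix-loop-helix transcription factors that accumulate in darkness, activate growth genes and hold back genes of the photosynthetic apparatus until light triggers their breakdown. EIN3 and EIL1 are the main transcription factors of ethylene signalling, and ethylene tightens the hook. HOOKLESS1 (HLS1), an N-acetyltransferase-like protein, is needed for the hook to form, and its gene is a known target of both EIN3 and PIFs. Seedlings without it form no hook. The question put to the data was how the transcriptome without HLS1 differs from the transcriptome without the upstream factors.

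The table gives 1 value per gene and genotype, taken as the authors' mean over both libraries, so the spread between replicates cannot be seen and no difference below has a test. The depth of the libraries is unknown. The words higher and lower are used of genes whose log2 difference was 1 or more either way, a 2-fold difference in RPKM + 1. In hls1, 1599 genes were higher, 8.85% of those compared, and 884 were lower, 4.89%. Either way, 2483 genes or 13.7% passed. The median difference of all genes was 0.21, with 10576 genes (58.6%) within 0.5 of equality. A difference of 3 or more was reached by 79 genes higher in hls1 and by 40 lower. The balance of the calls depended on the scaling. After median-of-ratios scaling, which moved the median of all genes by -0.19, 1094 genes were higher (6.06%) and 1280 lower (7.09%), so that 46.1% of the calls were higher in hls1 against 64.4% without it. After scaling to 10 reference genes, which moved the median by -0.44, 717 genes were higher (3.96%) and 2094 lower (11.6%). List counts are therefore given with all 3 scalings, and list medians are to be read against the 0.21 of all genes. Since whole shoots were sequenced, fewer cells of a type and less RNA per cell cannot be told apart in any difference.

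**Figure D1:**
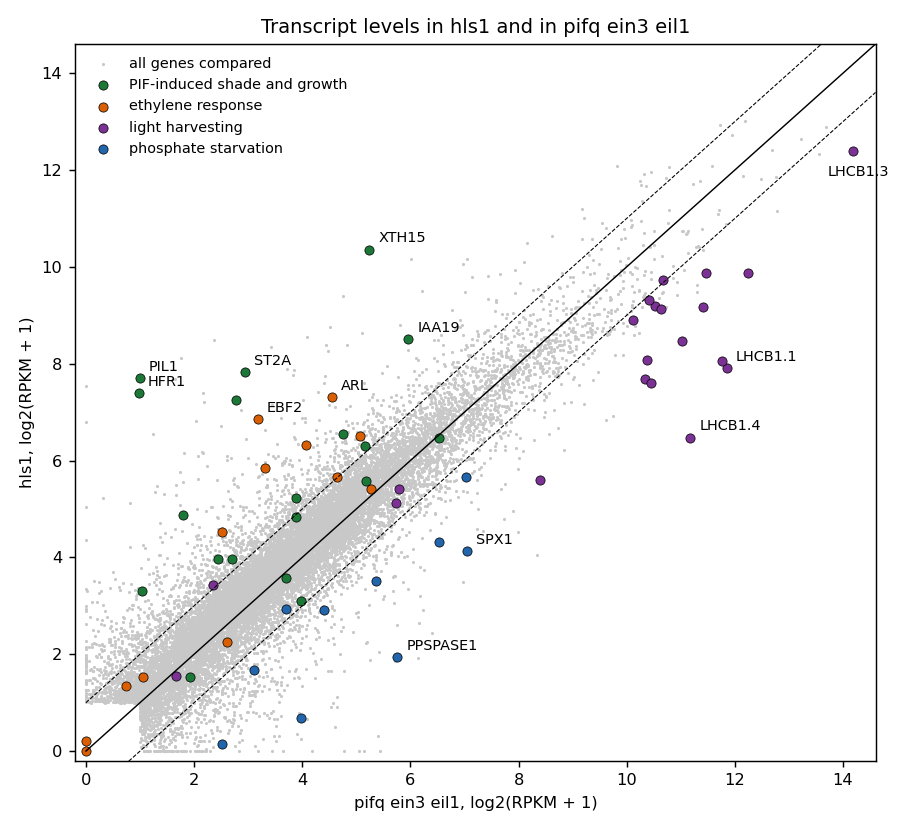
Each point is a compared gene, with log2(RPKM + 1) in hls1 on the vertical axis and in pifq ein3 eil1 on the horizontal axis; the solid line marks equality and the dashed lines a log2 difference of 1. Coloured members of 4 lists lie on opposite sides of the diagonal: PIF-induced and ethylene genes mostly above it, light-harvesting genes mostly below it (LHCB4.3 lies above) and phosphate starvation genes below it.

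The transcripts of the mutated genes were read first as a check of the labels. HLS1 (AT4G37580) stood at 6.28 RPKM in hls1 against 3.04 RPKM in pifq ein3 eil1, with 11.2 in Col-0. Both mutants were thus below the wild type, and the mutant of the gene itself held the higher transcript level of the pair, a log2 difference of 0.85 that did not reach the threshold. Its levels in pifq and ein3 eil1 were 7.16 and 2.84 RPKM. EIN3 had 108 RPKM in hls1 against 13.3 RPKM in pifq ein3 eil1, a log2 difference of 2.93. Its partner EIL1 had 67.2 RPKM in hls1 against 10.7 RPKM in pifq ein3 eil1, a difference of 2.55. PIF3 was at 32.8 RPKM in hls1 against 2.35 RPKM in pifq ein3 eil1 (3.33). PIF5 was at 16.0 RPKM in hls1 against 2.31 RPKM in pifq ein3 eil1 (2.36). These 4 were thus lower in the genotype whose name includes them than in hls1. Relative to Col-0, pifq ein3 eil1 had differences of -2.57 for EIN3, -1.96 for EIL1 and -3.43 for PIF3. For PIF5 the difference was -0.69, short of the threshold, and hls1 was itself above Col-0 by 1.67. The other PIF genes of pifq did not pass between the pair. PIF1 had 22.8 RPKM in hls1 against 11.8 RPKM in pifq ein3 eil1, a difference of 0.89. Relative to Col-0, PIF1 in pifq ein3 eil1 was at -0.64. PIF4 had 9.81 RPKM in hls1 against 11.6 RPKM in pifq ein3 eil1, a difference of -0.23. Its Col-0 level was 4.36 RPKM, so PIF4 in pifq ein3 eil1 was above Col-0 by 1.24, past the threshold. In pifq it was also above Col-0, at 8.69 RPKM. The PIF4 transcript therefore gave no support to the labels. A transcript level does not say whether a working protein is made from it.

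**Figure D2:**
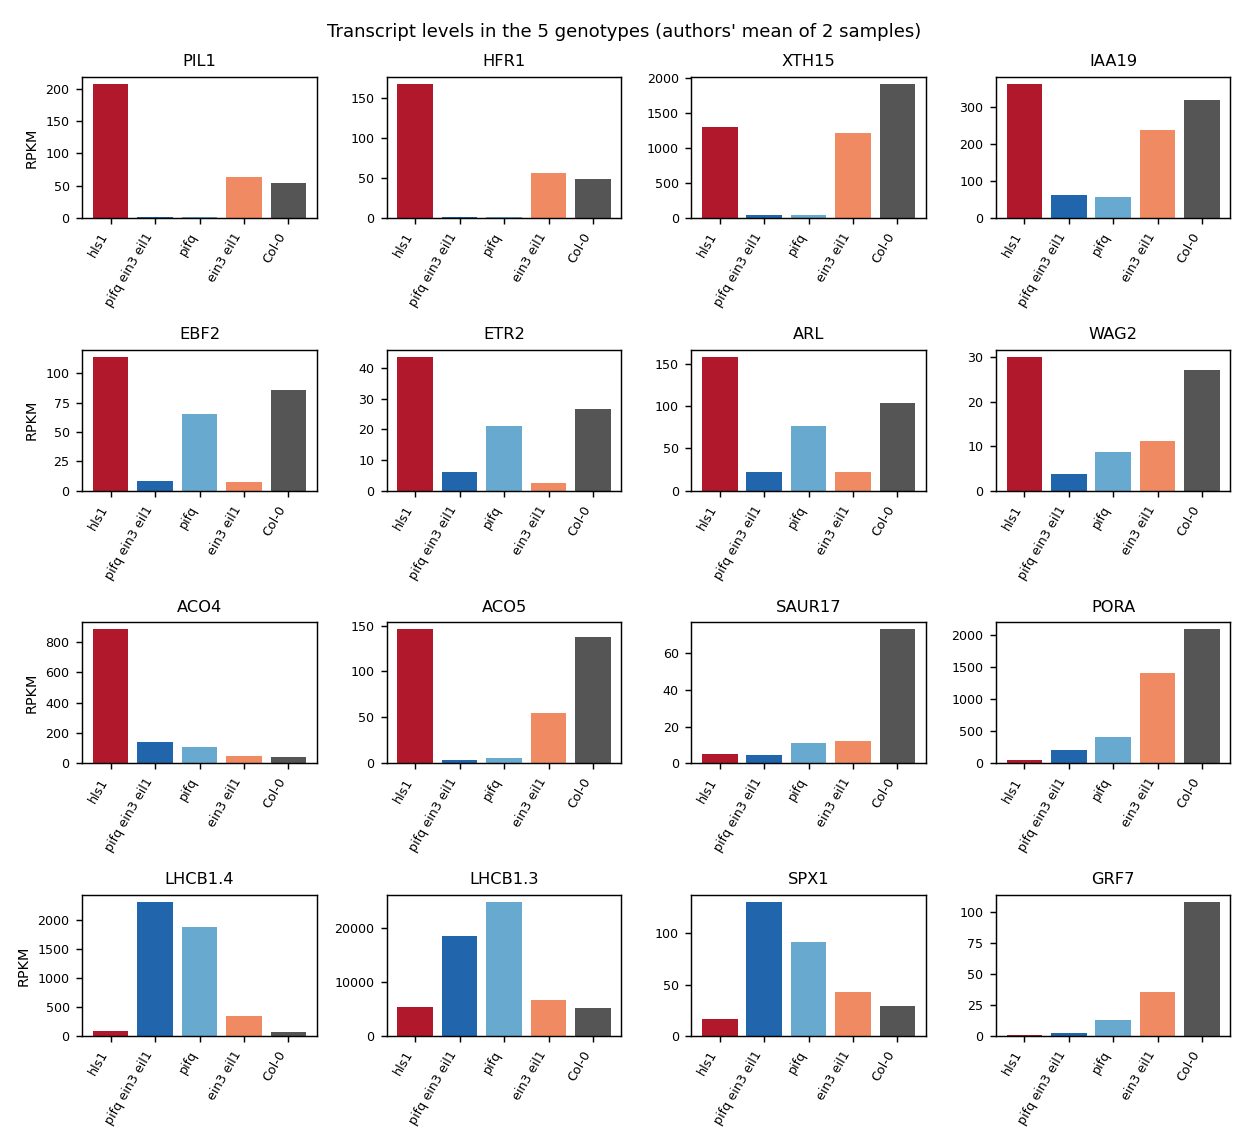
Bars give RPKM in hls1, pifq ein3 eil1, pifq, ein3 eil1 and Col-0 for 16 genes described in the text, 1 panel per gene with its own axis from 0; each bar is the authors' mean, without an error. PIL1, HFR1 and XTH15 are low in both genotypes that carry pifq, EBF2, ETR2 and ARL in both that carry ein3 eil1, while SAUR17, PORA and GRF7 are far below Col-0 in hls1 and in pifq ein3 eil1 alike.

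Among genes above 0 RPKM in both genotypes, the 2 with the widest gap on the hls1 side were PIF targets. PIL1 (AT2G46970), a helix-loop-helix protein induced by shade, stood at 208 RPKM in hls1 against 0.9996 RPKM in pifq ein3 eil1, a log2 difference of 6.71. HFR1 (AT1G02340), an atypical helix-loop-helix protein that binds PIFs and limits them, was at 167 RPKM in hls1 against 0.971 RPKM in pifq ein3 eil1, a difference of 6.42. In hls1 both were also above their Col-0 levels of 54.9 and 48.0 RPKM, and both were near 1 RPKM in pifq, at 1.08 and 1.42. Of the 19 listed shade and growth genes that PIFs induce, all reached 1 RPKM in a column, 2 of them in a single column. They had a median difference of 1.53, which is 1.32 above that of all genes. In hls1 13 were higher and 0 lower (12 and 1 after median-of-ratios scaling, 10 and 1 after reference scaling). Against Col-0 the medians of the same list were 0.21 for hls1 and -1.94 for pifq ein3 eil1, comparisons that share the Col-0 samples. The 10 reference genes had medians of 0.27 and -0.18 in the same comparisons. List medians against Col-0, here and below, were not rescaled and are to be read beside these.

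Homeodomain-leucine zipper factors are early transcription factors of the shade response. Among them ATHB2 was at 150.3 RPKM in hls1 against 5.80 RPKM in pifq ein3 eil1. ATHB4 was at 8.88 RPKM in hls1 against 1.05 RPKM in pifq ein3 eil1. HAT3, of the same family, lay the other way at 7.52 RPKM in hls1 against 14.7 RPKM in pifq ein3 eil1, short of the threshold. ST2A, a sulphotransferase that inactivates jasmonate derivatives, had 226 RPKM in hls1 against 6.69 RPKM in pifq ein3 eil1. XTH15, a cell wall xyloglucan enzyme, was abundant at 1307 RPKM in hls1 against 36.7 RPKM in pifq ein3 eil1. CKX5, which degrades cytokinin, stood at 28.5 RPKM in hls1 against 2.46 RPKM in pifq ein3 eil1. IAA19, a repressor of auxin response in elongating stems, stood at 363 RPKM in hls1 against 61.2 RPKM in pifq ein3 eil1. The listed genes of auxin synthesis did not pass the threshold. YUC8 was at 10.8 RPKM in hls1 against 12.0 RPKM in pifq ein3 eil1, and the low YUC9 had a difference of -0.39. PAR1 and PAR2, whose products hold back growth in shade, also stayed within it. PAR1 was at 46.5 RPKM in hls1 against 35.2 RPKM in pifq ein3 eil1, with 120.1 in Col-0. PAR2 was at 87.0 RPKM in hls1 against 91.2 RPKM in pifq ein3 eil1, with 205 in Col-0, so the pair lay together below the wild type.

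The promoters of 3 genes are shown because PIL1, EBF2 and LHCB1.4 had the widest differences of the PIF-induced, ethylene response and light-harvesting lists. Each is the 250 bases before the annotated start, read from the RefSeq TAIR10.1 genome, 5′ to 3′ on the gene's strand, with capitals marking ACGT, the core shared by the G-box and related light-response elements, and ATGTA or its reverse complement TACAT, the core of an EIN3 element. The windows are chr2:19297859-19298108 (minus strand) for PIL1, chr5:8797350-8797599 (minus strand) for EBF2 and chr2:14524357-14524606 (plus strand) for LHCB1.4, and no other annotated gene overlaps them.
PIL1: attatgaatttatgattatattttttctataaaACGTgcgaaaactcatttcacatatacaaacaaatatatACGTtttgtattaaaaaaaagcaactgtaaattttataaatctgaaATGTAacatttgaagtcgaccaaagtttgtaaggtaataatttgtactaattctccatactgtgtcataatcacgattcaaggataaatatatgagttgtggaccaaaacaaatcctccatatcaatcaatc
EBF2: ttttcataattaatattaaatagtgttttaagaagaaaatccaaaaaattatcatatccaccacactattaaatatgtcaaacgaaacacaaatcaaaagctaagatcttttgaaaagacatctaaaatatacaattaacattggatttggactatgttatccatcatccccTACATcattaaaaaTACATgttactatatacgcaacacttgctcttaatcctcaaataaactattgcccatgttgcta
LHCB1.4: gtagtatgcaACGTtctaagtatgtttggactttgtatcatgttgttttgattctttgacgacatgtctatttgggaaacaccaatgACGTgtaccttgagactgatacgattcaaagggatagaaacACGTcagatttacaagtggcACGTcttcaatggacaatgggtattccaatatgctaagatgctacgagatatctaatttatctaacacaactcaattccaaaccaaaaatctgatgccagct
The PIL1 window holds 2 ACGT cores and 1 ATGTA core, the EBF2 window 2 TACAT cores, and the LHCB1.4 window 4 ACGT cores. The windows of the next widest gene of each list, not printed, differed from these. That of HFR1 holds 0 ACGT cores and 1 ATGTA core on either strand, and that of ARL 1 ACGT and 0 ATGTA. That of LHCB1.1 holds 2 ACGT and 0 ATGTA. Across the 17763 compared genes with such a window, 44.0% held ACGT and 51.9% held ATGTA on either strand, so these short matches are common. The full G-box CACGTG was in 6.69% of the windows of the 1570 genes higher in hls1 and in 9.62% of those of the 863 lower, against 7.32% of all. The PIF-binding variant CACATG was in 15.2% of the higher and 11.4% of the lower genes, against 10.97% of all. The longer EIN3 element ATGTATC was in 3.76% of the higher and 4.52% of the lower genes, against 3.46% of all. All were searched on both strands. CACGTG contains the ACGT core and ATGTATC the ATGTA core, and none of these 3 longer motifs lies in the windows printed. A match is not a bound site, and motifs outside the window were not searched.

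The hook bends because auxin collects on its inner side and slows growth there. WAG1 and WAG2 are kinases that direct the auxin efflux carriers. WAG2 stood at 30.2 RPKM in hls1 against 3.66 RPKM in pifq ein3 eil1, a difference of 2.74. WAG1 was lower in level, at 14.61 RPKM in hls1 against 1.23 RPKM in pifq ein3 eil1. AUX1, the auxin influx carrier, had 113 RPKM in hls1 against 41.3 RPKM in pifq ein3 eil1, a difference of 1.43 that became 0.93 after reference scaling. PID and PIN4 passed narrowly at 1.08 and 1.02, and neither passed after either scaling. Of 18 listed genes, 5 were higher in hls1 and 0 lower, with a median of 0.81, or 0.61 above all genes (3 and 0 after median-of-ratios scaling, 2 and 0 after reference scaling). SAUR17, a small auxin-induced RNA, was near equal at 5.01 RPKM in hls1 against 4.44 RPKM in pifq ein3 eil1 and far below the 73.0 RPKM of Col-0. The efflux carrier PIN3 came close to the threshold at 122 RPKM in hls1 against 63.6 RPKM in pifq ein3 eil1. ARF2, the response factor through which HLS1 is known to act, was near equal at 60.6 RPKM in hls1 against 56.8 RPKM in pifq ein3 eil1.

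Auxin-responsive genes were called higher in hls1 for 14 and lower for 2 of 29 (10 and 2 after median-of-ratios scaling, 6 and 5 after reference scaling), with a median of 0.78, 0.57 above all genes. Aux/IAA genes, which encode repressors that auxin destroys, supplied the most abundant of them. IAA7 stood at 648 RPKM in hls1 against 173 RPKM in pifq ein3 eil1. IAA17 stood at 432 RPKM in hls1 against 119.7 RPKM in pifq ein3 eil1. All 6 of SAUR19 to SAUR24, small genes of elongating hypocotyls, were higher, SAUR22 at 222 RPKM in hls1 against 43.2 RPKM in pifq ein3 eil1. Reads of these near-identical copies may have been divided among them, so single members are uncertain. GH3.3, which conjugates auxin to amino acids, lay the other way with 22.3 RPKM in hls1 against 48.7 RPKM in pifq ein3 eil1. IAA5 was the other lower gene, at 1.61 RPKM in hls1 against 4.58 RPKM in pifq ein3 eil1. IAA1 and SAUR14 had differences of -0.62 and -0.63, which did not pass.

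Ethylene response genes are those that EIN3 and EIL1 switch on. EBF2 (AT5G25350), an F-box protein that sends EIN3 to the proteasome, stood at 114 RPKM in hls1 against 8.07 RPKM in pifq ein3 eil1, a difference of 3.67. It was also low in ein3 eil1 at 7.44 RPKM and stood at 86.1 in Col-0. EBF1 had 56.1 RPKM in hls1 against 8.90 RPKM in pifq ein3 eil1. ARL and ARGOS are membrane proteins that promote organ growth and dampen ethylene sensitivity. ARL was at 158 RPKM in hls1 against 22.3 RPKM in pifq ein3 eil1, a difference of 2.77. ARGOS was at 79.4 RPKM in hls1 against 15.7 RPKM in pifq ein3 eil1. Among the AP2/B3 factors that ethylene induces, EDF3 was at 22.1 RPKM in hls1 against 4.72 RPKM in pifq ein3 eil1. RAV1 was at 90.07 RPKM in hls1 against 32.5 RPKM in pifq ein3 eil1. EDF3 and RAV1 were lower in pifq, at 4.33 and 49.2 RPKM, than in ein3 eil1, at 12.5 and 63.3 RPKM. Their Col-0 levels were 34.2 and 100.7 RPKM. TEM2, of the same family, was within the threshold at 41.6 RPKM in hls1 against 37.4 RPKM in pifq ein3 eil1. Of 13 listed response genes, 11 reached 1 RPKM, and 7 were higher and 0 lower (6 and 0, then 5 and 0 after the scalings), with a median of 1.003 against 0.21 in all genes. ERF1 was listed at 0 in pifq ein3 eil1 and at 0.157 RPKM in hls1, and the defence factor ORA59 was under 2 RPKM in both, at 1.55 and 0.668.

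Some ethylene receptor genes passed the threshold and others did not. ETR2, ERS1 and ERS2, whose transcripts ethylene is known to raise, were higher in hls1. ETR2 was at 43.7 RPKM in hls1 against 5.95 RPKM in pifq ein3 eil1, a difference of 2.68. ERS1 was at 66.2 RPKM in hls1 against 16.6 RPKM in pifq ein3 eil1. ERS2 was at 11.5 RPKM in hls1 against 1.77 RPKM in pifq ein3 eil1. ETR1 and EIN4, which ethylene is not known to induce strongly, were within the threshold. ETR1 was at 11.5 RPKM in hls1 against 6.60 RPKM in pifq ein3 eil1. EIN4 was at 10.9 RPKM in hls1 against 8.10 RPKM in pifq ein3 eil1. Below the receptors act the kinase CTR1, which keeps the pathway off, and EIN2, which carries the signal to the nucleus. CTR1 was at 48.0 RPKM in hls1 against 23.4 RPKM in pifq ein3 eil1. EIN2 was at 52.6 RPKM in hls1 against 27.7 RPKM in pifq ein3 eil1, a difference of 0.90. The differences of 1.007 for CTR1 and 1.03 for the receptor regulator RTE1 were past the threshold before scaling and under it after either scaling. Of the 10 listed, 5 were higher and 0 lower (3 and 0 after each scaling), with a median of 0.95, 0.75 above all genes.

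Ethylene synthesis runs through ACC synthases (ACS) and then ACC oxidases (ACO). Among synthases, ACS5 stood at 9.02 RPKM in hls1 against 0.869 RPKM in pifq ein3 eil1. ACS8 stood at 13.7 RPKM in hls1 against 2.83 RPKM in pifq ein3 eil1. ACS4 was the 1 listed gene lower in hls1, at 0.157 RPKM in hls1 against 3.52 RPKM in pifq ein3 eil1. Among oxidases, ACO5 had 146 RPKM in hls1 against 3.52 RPKM in pifq ein3 eil1, the widest difference of the list at 5.03. ACO4 had 885 RPKM in hls1 against 140.0 RPKM in pifq ein3 eil1, with 41.6 in Col-0, 104 in pifq and 49.9 in ein3 eil1. Its hls1 level was thus the highest of the 5 genotypes, and pifq ein3 eil1 was itself above Col-0. ACO1 differed little, at 77.8 RPKM in hls1 against 60.7 RPKM in pifq ein3 eil1. In all, 7 of 14 were higher and 1 lower (6 and 1, then 4 and 1), with 12 reaching 1 RPKM, 4 of these in a single column. The median was 0.85, 0.65 above all genes.

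**Figure D3:**
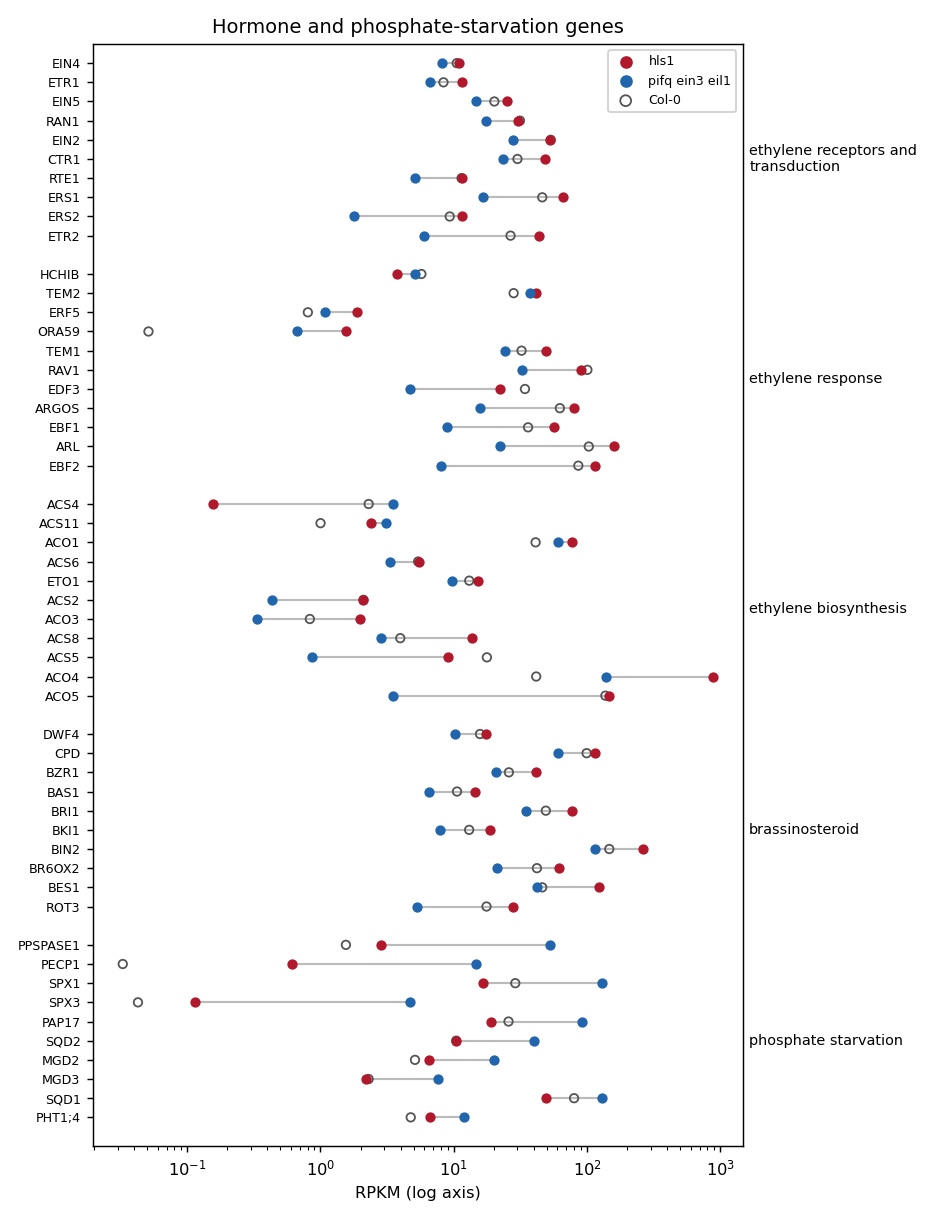
RPKM on a log axis for members of the ethylene, brassinosteroid and phosphate starvation lists, hls1 in red, pifq ein3 eil1 in blue, Col-0 open, without errors. The ethylene response genes EBF2 and ARL have hls1 beside Col-0 and pifq ein3 eil1 well to the left, and the phosphate starvation genes have pifq ein3 eil1 to the right of both.

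Brassinosteroid genes were higher in hls1 for 7 of 10 and lower for 0, with a median of 1.14 (0.93 above all genes), but 3 were higher after either scaling. ROT3, a steroid hydroxylase, stood at 27.9 RPKM in hls1 against 5.30 RPKM in pifq ein3 eil1. BR6OX2, which makes brassinolide, was at 61.7 RPKM in hls1 against 21.1 RPKM in pifq ein3 eil1. BES1, a transcription factor at the end of the pathway, was at 122 RPKM in hls1 against 42.3 RPKM in pifq ein3 eil1. These are the 3 that passed with every scaling. The receptor BRI1 was at 76.6 RPKM in hls1 against 34.6 RPKM in pifq ein3 eil1. BIN2, the kinase that restrains the pathway, was at 263 RPKM in hls1 against 116 RPKM in pifq ein3 eil1. Gibberellin genes showed no common direction: 3 of 17 were higher and 1 lower (1 and 1, then 1 and 2), and their median of 0.06 turned to -0.08 and -0.28 after the scalings. The DELLA repressor GAI was at 55.3 RPKM in hls1 against 17.9 RPKM in pifq ein3 eil1, the 1 higher with every scaling. GA2OX6, which inactivates gibberellin, was the lower gene, at 2.26 RPKM in hls1 against 9.72 RPKM in pifq ein3 eil1. GA3OX1, which makes active gibberellin, was near equal at 25.5 RPKM in hls1 against 25.1 RPKM in pifq ein3 eil1.

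Cell wall genes went both ways. Of 30 expansins and xyloglucan endotransglucosylases (XTH), 14 were higher and 5 lower in hls1, with 9 and 5 after median-of-ratios scaling and 7 and 8 after reference scaling. Their median was 0.58, 0.37 above all genes. After reference scaling it became 0.08, beside -0.25 in all genes. Expansins loosen the wall, and XTH enzymes cut and rejoin its xyloglucan. XTH17 was at 723 RPKM in hls1 against 73.1 RPKM in pifq ein3 eil1. XTH18, a close copy that may share its reads, was at 305 RPKM in hls1 against 21.2 RPKM in pifq ein3 eil1. XTH33 was at 65.0 RPKM in hls1 against 10.3 RPKM in pifq ein3 eil1. In the other direction the expansin genes EXPA4 and EXPB3 and the enzyme gene XTH9 were lower. The expansin gene EXPA2, also lower, reached 1 RPKM in pifq ein3 eil1 alone. EXPA4 stood at 15.2 RPKM in hls1 against 57.9 RPKM in pifq ein3 eil1. EXPB3 stood at 4.82 RPKM in hls1 against 17.9 RPKM in pifq ein3 eil1. XTH9 stood at 39.7 RPKM in hls1 against 98.2 RPKM in pifq ein3 eil1. EXPA1 was close to equal at 461 RPKM in hls1 against 490.5 RPKM in pifq ein3 eil1, although Col-0 had 102 RPKM.

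Light-harvesting genes lay in the opposite direction. Their products bind chlorophyll around the photosystems. LHCB1.4 (AT2G34430) stood at 87.7 RPKM in hls1 against 2316 RPKM in pifq ein3 eil1, a difference of -4.71, and Col-0 had 61.3. LHCB1.3, the most abundant member, had 5370.4 RPKM in hls1 against 18629 RPKM in pifq ein3 eil1. LHCB1.1 had 239.6 RPKM in hls1 against 3696 RPKM in pifq ein3 eil1. The LHCB1 copies, and those of LHCB2, are near identical, so how their reads were divided is uncertain; their direction was common to all 8. The antennae of photosystem I lay the same way. LHCA1 had 193 RPKM in hls1 against 1388 RPKM in pifq ein3 eil1. LHCA4 had 353 RPKM in hls1 against 2076 RPKM in pifq ein3 eil1. Of 21 genes, 16 were lower and 1 higher in hls1 (17 and 0, then 18 and 0), with a median of -1.79 against 0.21 in all genes. The higher one was LHCB4.3, at 9.82 RPKM in hls1 against 4.104 RPKM in pifq ein3 eil1, which no longer passed after either scaling. Set against Col-0, the list's median was 0.05 for hls1 and 1.83 for pifq ein3 eil1.

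Photosystem subunits, electron carriers and Rubisco shifted less. In hls1, 15 of 36 were lower and 1 higher, and 23 and then 28 were lower after the scalings with 1 higher in each. The median was -0.92, and -1.12 relative to all genes. PETE1, which encodes the electron carrier plastocyanin, was at 85.3 RPKM in hls1 against 312 RPKM in pifq ein3 eil1. PSAD2, a photosystem I subunit gene, was at 203 RPKM in hls1 against 661 RPKM in pifq ein3 eil1. RBCS2B, for a small subunit of Rubisco, was the higher gene at 3489 RPKM in hls1 against 1205 RPKM in pifq ein3 eil1. RBCS1A, of the same family, stood the other way at 6397 RPKM in hls1 against 9579.5 RPKM in pifq ein3 eil1, within the threshold. Reads of the RBCS copies may also have been divided among them. PSBS, which dissipates excess light energy, was on the higher side without passing, at 941 RPKM in hls1 against 673 RPKM in pifq ein3 eil1.

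Of 31 genes of tetrapyrrole and chlorophyll synthesis, 10 were lower and 0 higher in hls1 (13 and 0, then 21 and 0), with a median of -0.66, and -0.86 relative to all genes. HEMA1, which encodes the enzyme at the start of the pathway, stood at 64.9 RPKM in hls1 against 255 RPKM in pifq ein3 eil1. CRD1, for a later ring-forming step, stood at 287 RPKM in hls1 against 884 RPKM in pifq ein3 eil1. Relative to Col-0, the list's median was -0.40 for hls1 and 0.24 for pifq ein3 eil1. HEMA1 and CRD1, at 109 and 450 RPKM in Col-0, were below it in hls1 and above it in pifq ein3 eil1. The protochlorophyllide reductase genes PORA and PORB were far below Col-0 in both mutants. Some other members, CHLP and CHLG among them, were also below Col-0 in both, by less. PORA, the reductase of etiolated tissue, was at 44.5 RPKM in hls1 against 213 RPKM in pifq ein3 eil1, with 2089 in Col-0. PORB stood at 145 RPKM in hls1 against 459 RPKM in pifq ein3 eil1, with 1481 in Col-0. PORC, the reductase of green tissue, was at 16.1 RPKM in hls1 against 48.9 RPKM in pifq ein3 eil1 and had 39.8 in Col-0. Ferrochelatase FC1 and haem oxygenase HY1, of the haem branch, were within the threshold. FC1 was at 23.7 RPKM in hls1 against 16.7 RPKM in pifq ein3 eil1. HY1 was at 120.4 RPKM in hls1 against 108 RPKM in pifq ein3 eil1.

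**Figure D4:**
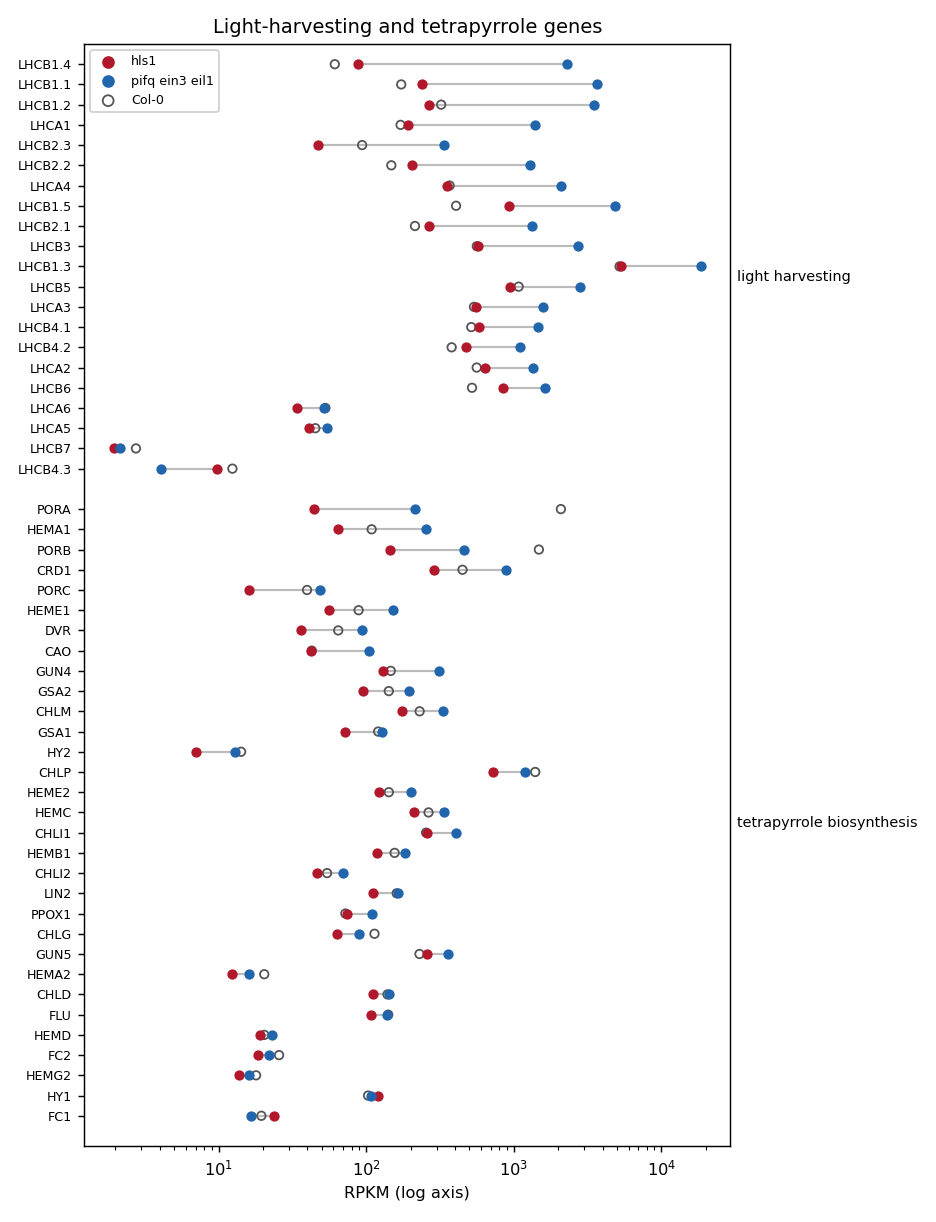
RPKM on a log axis for the light-harvesting and tetrapyrrole genes, hls1 in red, pifq ein3 eil1 in blue and Col-0 as an open symbol, without errors. In most light-harvesting rows hls1 and Col-0 lie together left of pifq ein3 eil1, whereas in the PORA and PORB rows Col-0 lies to the right of both.

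Genes of light perception and signalling did not follow the photosynthesis genes. In hls1, 9 of 25 were higher and 0 lower (9 and 0, then 5 and 1), with a median of 0.63, 0.42 above all genes. The photoreceptor gene PHYA was at 331 RPKM in hls1 against 141 RPKM in pifq ein3 eil1. PHYB was at 55.9 RPKM in hls1 against 19.9 RPKM in pifq ein3 eil1. ELIP1 and ELIP2 encode thylakoid proteins that protect against light stress. ELIP1 stood at 324 RPKM in hls1 against 9.68 RPKM in pifq ein3 eil1, a difference of 4.93. ELIP2 stood at 213 RPKM in hls1 against 20.3 RPKM in pifq ein3 eil1. HY5, the main activator of light responses, had 22.7 RPKM in hls1 against 8.50 RPKM in pifq ein3 eil1. PHYA, PHYB and HY5 did not pass after reference scaling, at 0.72, 0.95 and 0.84, whereas ELIP1 and ELIP2 did. The B-box gene BBX23 was at 12.7 RPKM in hls1 against 1.02 RPKM in pifq ein3 eil1 and lay below Col-0 in both, at 114 there. GLK1 and GLK2, activators of photosynthesis genes, were within the threshold. GLK1 was at 26.1 RPKM in hls1 against 15.1 RPKM in pifq ein3 eil1. GLK2 was at 37.2 RPKM in hls1 against 46.8 RPKM in pifq ein3 eil1.

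Phosphate starvation genes were higher in pifq ein3 eil1. Of 10 listed, 9 were lower and 0 higher in hls1 (9 and 0, then 10 and 0), with a median of -2.03, and -2.23 relative to all genes. PPsPase1, a pyrophosphatase, stood at 2.83 RPKM in hls1 against 52.9 RPKM in pifq ein3 eil1. PECP1, which releases phosphate from phospholipid head groups, stood at 0.614 RPKM in hls1 against 14.7 RPKM in pifq ein3 eil1. PECP1 and SPX3 reached 1 RPKM in pifq ein3 eil1 alone, so only a lower call was open to them. SPX1, an intracellular phosphate sensor, was at 16.6 RPKM in hls1 against 130.4 RPKM in pifq ein3 eil1, with 29.0 in Col-0 and 91.7 in pifq. SQD1 and SQD2 make the sulpholipid that replaces phospholipid. SQD1 was at 49.5 RPKM in hls1 against 129.9 RPKM in pifq ein3 eil1. SQD2 was at 10.4 RPKM in hls1 against 40.0 RPKM in pifq ein3 eil1. The transporter gene PHT1;4 was the exception, at 6.62 RPKM in hls1 against 11.9 RPKM in pifq ein3 eil1, and passed after reference scaling. In hls1 the list's median was 0.04 against Col-0.

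Growth-regulating factors (GRF), which drive cell proliferation in leaf primordia, had medians of -1.28 for hls1 and -0.74 for pifq ein3 eil1 relative to Col-0. GRF7 stood at 0.824 RPKM in hls1 against 2.77 RPKM in pifq ein3 eil1, with 108 in Col-0. GRF2 stood at 3.67 RPKM in hls1 against 5.64 RPKM in pifq ein3 eil1, with 28.4 in Col-0. Of the 10 listed, 9 reached 1 RPKM, and between the pair 2 were lower in hls1 and 0 higher (3 and 0, then 5 and 0). The 2 were GRF7 and GRF4, the latter at 0.677 RPKM in hls1 against 4.15 RPKM in pifq ein3 eil1. Each reached 1 RPKM in pifq ein3 eil1 alone, so no call in the other direction was open to it. Over all compared genes, 4.89% were lower and 8.85% higher (7.09% and 6.06%, then 11.6% and 3.96%). Of 9 cell division genes 1 was lower and 0 higher (1 and 0, then 6 and 0). The 6 appeared only after reference scaling, which moved the median of all genes by -0.44. The list's median was -0.575 and 8 had differences below 0, whereas 64.9% of all compared genes had differences above 0. The gene lower before scaling was KNOLLE, the syntaxin of the forming cell plate, at 18.0 RPKM in hls1 against 39.5 RPKM in pifq ein3 eil1. Of 10 clock genes, 8 reached 1 RPKM, and 1 was lower and 1 higher (1 and 1, then 1 and 0). CCA1, a morning factor, was at 29.6 RPKM in hls1 against 64.6 RPKM in pifq ein3 eil1. ELF4, of the evening complex, was at 4.54 RPKM in hls1 against 1.26 RPKM in pifq ein3 eil1; it did not pass after reference scaling.

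Among stress and metabolic lists, the jasmonate, abscisic acid and flavonoid lists held calls in both directions before scaling. Heat shock genes were called lower only, and low oxygen genes not at all. The counts of these lists are to be read beside all compared genes, of which 4.89% were lower and 8.85% higher (7.09% and 6.06%, then 11.6% and 3.96%). Of 16 jasmonate and defence genes, 11 reached 1 RPKM, and 5 were lower and 2 higher in hls1 (6 and 1, then 6 and 0). LOX2, an early enzyme of jasmonate synthesis, stood at 0.665 RPKM in hls1 against 9.16 RPKM in pifq ein3 eil1. AOC2, a later one, stood at 0.723 RPKM in hls1 against 9.66 RPKM in pifq ein3 eil1. LOX2 and AOC2 were kept through pifq ein3 eil1 alone, and the defence gene PR1 through hls1 alone. The calls of these genes could therefore go 1 way only. AOS, of the same pathway, lay the other way before scaling at 30.4 RPKM in hls1 against 13.05 RPKM in pifq ein3 eil1. Of 16 abscisic acid and dehydration genes, 10 reached 1 RPKM, and 4 were lower and 1 higher with every scaling. Among the 4, LEA7 and RAB18 reached 1 RPKM in pifq ein3 eil1 alone. The cold-induced KIN2 was at 22.2 RPKM in hls1 against 252 RPKM in pifq ein3 eil1, with 387 in Col-0. ABI1, a phosphatase that restrains abscisic acid signalling, was at 21.7 RPKM in hls1 against 6.65 RPKM in pifq ein3 eil1. Of 14 flavonoid genes, 12 reached 1 RPKM, and 2 were higher and 1 lower (1 and 1, then 0 and 3). One of the higher genes, TT7, was kept through hls1 alone. TT4, chalcone synthase at the entry of the pathway, was within the threshold at 226 RPKM in hls1 against 147 RPKM in pifq ein3 eil1. Of 10 heat shock genes 2 were lower and 0 higher (3 and 0, then 4 and 0). The small heat shock protein gene HSP18.2 had 0.528 RPKM in hls1 against 5.09 RPKM in pifq ein3 eil1, and was kept through the latter alone. None of 11 low oxygen genes passed before scaling, and 2 and 3 were lower after the scalings. HB1, a haemoglobin gene, stood at 899.8 RPKM in hls1 against 869 RPKM in pifq ein3 eil1. ADH1, alcohol dehydrogenase, stood at 150.4 RPKM in hls1 against 182 RPKM in pifq ein3 eil1. None of 11 seed storage and late embryogenesis genes reached 1 RPKM in either genotype.

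Root markers were read because roots were removed at harvest. Of 14, 9 reached 1 RPKM, 2 of them in a single column. In hls1, 5 were higher, CASP1 to CASP4 and the aquaporin gene TIP2;3, and 2 were lower with every scaling. Over all compared genes, 8.85% were higher and 4.89% lower (6.06% and 7.09%, then 3.96% and 11.6%). The list's median was 0.03, or -0.17 relative to all genes. Its summed level was 225 RPKM in hls1, 61.0 in pifq ein3 eil1 and 199.8 in Col-0. The Casparian strip genes CASP1 to CASP4, of the endodermis, accounted for most of it. CASP1 was at 98.1 RPKM in hls1 against 18.1 RPKM in pifq ein3 eil1. CASP4 was at 20.9 RPKM in hls1 against 3.19 RPKM in pifq ein3 eil1. The triterpene synthase genes THAS1 and MRN1 lay the other way. MRN1 was at 0.760 RPKM in hls1 against 6.86 RPKM in pifq ein3 eil1, and was kept through the latter alone. Of the root hair genes, RHD6 was near 0 at 0.187 RPKM in hls1 against 0.228 RPKM in pifq ein3 eil1. PRP3 was near equal at 4.77 RPKM in hls1 against 5.28 RPKM in pifq ein3 eil1. The root ion transporters NRT2.1 and IRT1 were listed at 0 in hls1 and at 0.0302 and 0.113 RPKM in pifq ein3 eil1. The part of such cells in any other difference was not tested.

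**Figure D5:**
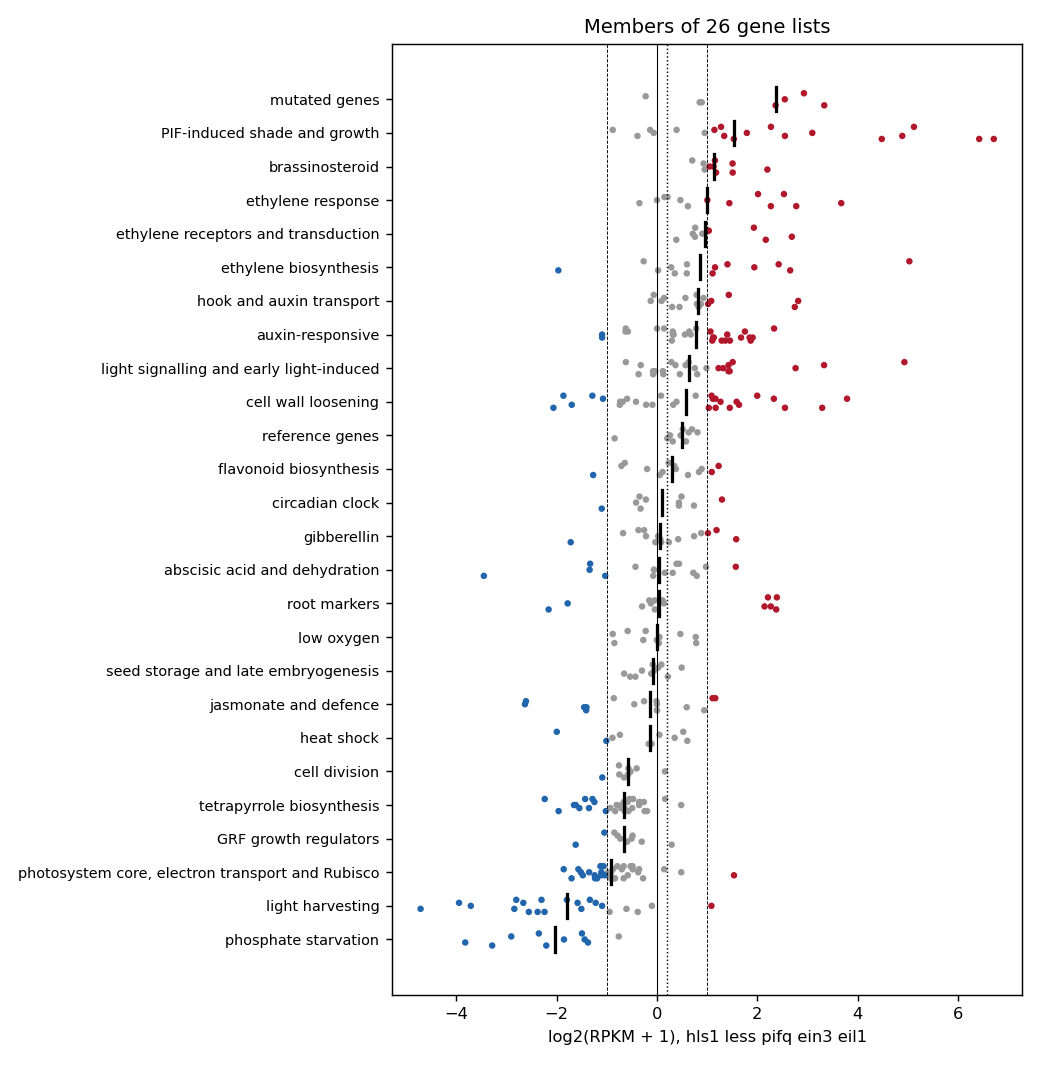
Each point is the log2 difference of 1 listed gene, hls1 less pifq ein3 eil1, in a row per list; black ticks are list medians, the dotted line is the median of all genes at 0.21 and dashed lines are differences of 1, beyond which points are red (higher in hls1) or blue (lower). PIF-induced and ethylene lists lie to the right and light harvesting and phosphate starvation to the left, while low oxygen, clock and gibberellin genes straddle 0.

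Genes with wide differences that the lists do not hold were of several kinds. FLP1, a small protein related to flowering promotion, stood at 276 RPKM in hls1 against 2.40 RPKM in pifq ein3 eil1. AZI1, a lipid-transfer-type protein of systemic immunity, was at 358 RPKM in hls1 against 4.15 RPKM in pifq ein3 eil1, and was low in ein3 eil1, at 7.46 RPKM, but less so in pifq at 31.8. HB52, a homeodomain-leucine zipper factor, was at 203 RPKM in hls1 against 2.13 RPKM in pifq ein3 eil1. AGP22, for an arabinogalactan protein of the cell surface, was at 669 RPKM in hls1 against 25.9 RPKM in pifq ein3 eil1. In the other direction, PDF1.4, a defensin-like gene, had 0.237 RPKM in hls1 against 41.1 RPKM in pifq ein3 eil1. Its pifq ein3 eil1 level was also above those of pifq, ein3 eil1 and Col-0, at 8.45, 9.20 and 5.22 RPKM. AIR1, named for auxin induction in roots, had 2.79 RPKM in hls1 against 69.1 RPKM in pifq ein3 eil1, with 35.95 in ein3 eil1. CYP81F4, a cytochrome P450 of indole glucosinolate synthesis, stood at 0.882 RPKM in hls1 against 23.9 RPKM in pifq ein3 eil1. BCB, a blue copper protein gene, was at 0.886 RPKM in hls1 against 22.1 RPKM in pifq ein3 eil1.

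Several abundant genes lay within 0.1 of equality on the log2 scale. HOG1, an adenosylhomocysteine hydrolase, stood at 1389.6 RPKM in hls1 against 1442 RPKM in pifq ein3 eil1. The thioredoxin TRX3 stood at 1053 RPKM in hls1 against 1016 RPKM in pifq ein3 eil1. After reference scaling, TRX3 had a difference of -0.46. The 10 reference genes, often used to normalize expression, had a median of 0.49, which is 0 by construction after scaling to them. The actin gene ACT2 was at 756 RPKM in hls1 against 432 RPKM in pifq ein3 eil1. GAPC2, a glycolytic enzyme gene, was the 1 below 0, at 1035 RPKM in hls1 against 1859 RPKM in pifq ein3 eil1. Reads on nuclear rRNA genes made up 2.40% of summed RPKM in hls1 and 4.52% in pifq ein3 eil1, and plastid genes made up 2.39% in hls1 and 3.24% in pifq ein3 eil1.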

How the data were processed

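Polyadenylated RNA of etiolated seedlings without roots was sequenced, per the labels' protocols, from directional libraries as paired reads of 150 nt. The submitters' processing notes name TAIR10 and BWA 0.7.7. How reads were counted, with which strand setting and over which gene lengths, is not given in the sources used here. Reads of a gene and of an overlapping or antisense neighbour may not have been told apart. The deposited values are RPKM computed by the authors, with a column for each of 5 genotypes. Each value was taken as the mean over 2 samples. A test per gene needs values per sample and could not be run, so calls rest on an effect size.

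A pseudocount of 1 was added before log2, which understates the differences of low genes. Genes were kept at an RPKM of 1 or more in either column, and a log2 difference of 1 or more either way was called. Of the kept genes, 16642 reached 1 RPKM in both columns, 785 in hls1 alone and 633 in pifq ein3 eil1 alone; a gene kept through a single column was kept because it is higher there, and list medians were therefore taken over all listed members. Next to the minimum, AT5G18370 entered with 1.0004 RPKM in hls1 and 0.624 in pifq ein3 eil1, and BGLU5 stayed out with 0.196 in hls1 and 0.9996 in pifq ein3 eil1. Symbols came from the RefSeq gene table of TAIR10.1, which held 32817 of the identifiers and lacked 742. The description deposited beside AT1G01010 is that of a neighbouring gene, so descriptions were not used. As a check that the RPKM values belong to their identifiers, all 623 tRNA genes were listed at 0 in every column. EIN3, EIL1 and PIF3 were low in the mutants of these genes. PIF5, at 4.34 RPKM in Col-0, was at 1.60 in pifq and 2.31 in pifq ein3 eil1, a smaller gap.

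The named genes were the mutated genes, the 10 widest differences each way among genes with an entry in the symbol field of that table, values above 0 in both columns and at least 10 RPKM where higher, up to 5 members each way per list (where none passed, the 2 most abundant), and the 5 most abundant within 0.1 of equality. ACO5 has its name there only as a synonym, so its difference of 5.03 was not counted among the 10. Further list members, chosen after their values were seen, are named to show the range of a list; 1 listed gene, kept in the counts, is not reported here. The members and the 26 lists, of 421 genes, were chosen with earlier results of these data known. Alternatives were pseudocounts of 0.1 and 0.5, no filter, a minimum of 1 in both columns or of 5 in either, median-of-ratios scaling, rescaling without nuclear rRNA and organelle genes, a threshold of 2 on the log2 scale, and dropping genes listed at 0. Scaling to 10 reference genes was added after seeing the data, as were the 2 short promoter cores. The calculation was tested on simulated data. Python 3.11.15, numpy 2.4.6, pandas 2.3.3 and matplotlib 3.10.9 were used.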

Additional observations from a re-analysis of the deposited data

How the results depend on the processing

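No gene that the text names by rule changed direction past the threshold under median-of-ratios scaling, reference scaling or rescaling without nuclear rRNA and organelle genes. The rest of the 10 alternatives alter the threshold, the genes kept or the pseudocount, and cannot change the direction of a gene. The counts of 1599 higher and 884 lower became 287 and 170 at a log2 difference of 2, and 717 and 2094 after scaling to reference genes. They were 1094 and 1280 after median-of-ratios scaling, 2170 and 1227 with a pseudocount of 0.1, 1303 and 621 with 1 RPKM required in both columns, and 1299 and 643 with a minimum of 5 RPKM. Of 136 named genes, 11 lost their call after median-of-ratios scaling, among them PIN4, CTR1, RGA, BIN2 and AOS, and 17 after reference scaling, when AUX1, PHYB and TT7 were lost as well; the scaling itself lowers every difference in hls1. The medians of the gibberellin, clock and abscisic acid lists, and after reference scaling those of the flavonoid and root marker lists, turned from above to below 0. The median of all genes itself became 0.007 and -0.25 after the 2 scalings. Before scaling, the gibberellin, clock, abscisic acid and root marker medians were already -0.14, -0.10, -0.16 and -0.17 relative to all genes. The flavonoid median was 0.08 above all genes. No paired analysis was possible because the table holds no values per sample, and leaving out each replicate was not run for the same reason. Depth is unknown, so differences of genes near 1 RPKM, such as ORA59, cannot be told from counting error.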

Other observations

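The families in these paragraphs were picked after their values were seen. Over all compared genes, 8.85% were higher and 4.89% lower in hls1. These shares were 6.06% and 7.09% after median-of-ratios scaling, and 3.96% and 11.6% after reference scaling. Genes for cell surface arabinogalactan proteins lay largely on the hls1 side. Of 30 listed, 27 reached 1 RPKM, and 14 were higher and 0 lower in hls1 (12 and 1 after median-of-ratios scaling, 9 and 1 after reference scaling). AGP13 stood at 373 RPKM in hls1 against 16.1 RPKM in pifq ein3 eil1, and AGP2 at 335 RPKM in hls1 against 27.3 RPKM in pifq ein3 eil1. Of 19 fasciclin-like members, 14 reached 1 RPKM, and 6 were higher and 0 lower (6 and 0 after median-of-ratios scaling, 4 and 0 after reference scaling). FLA13 stood at 429.8 RPKM in hls1 against 21.9 RPKM in pifq ein3 eil1, and FLA9 at 2333 RPKM in hls1 against 573 RPKM in pifq ein3 eil1. Of 10 growth-related helix-loop-helix and homeodomain factors, 7 were higher and 1 lower (6 and 2 after median-of-ratios scaling, 5 and 2 after reference scaling). BEE3, which acts downstream of brassinosteroids, stood at 44.2 RPKM in hls1 against 2.19 RPKM in pifq ein3 eil1. CIB1, a blue light signalling partner of cryptochrome, stood at 37.8 RPKM in hls1 against 2.16 RPKM in pifq ein3 eil1. HEC2 was the lower one at 1.87 RPKM in hls1 against 14.2 RPKM in pifq ein3 eil1, with 51.5 in Col-0. Tubulins had 4 of 15 higher and 0 lower, with 2 higher after median-of-ratios scaling and 0 after reference scaling. The medians of these families, in the order given, were 0.81, 0.53, 1.49 and 0.98, against 0.21 in all genes.

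Genes that turn stored oil into sugar leaned the other way, with a median of -0.55. In hls1, 4 of 12 were lower and 0 higher (5 and 0 after median-of-ratios scaling, 7 and 0 after reference scaling). ACX1 and LACS6 had differences above 0, at 0.84 and 0.05. The isocitrate lyase gene ICL stood at 2277 RPKM in hls1 against 7056 RPKM in pifq ein3 eil1, and 6042 in Col-0. Malate synthase MLS was at 113 RPKM in hls1 against 785 RPKM in pifq ein3 eil1, with 391 in Col-0, so hls1 lay below the wild type and pifq ein3 eil1 above it. A run of lipid-transfer-type genes on chromosome 4, from AZI1 to AIR1, held both directions among its 10 genes. AT4G12520 had 1143 RPKM in hls1 against 63.4 RPKM in pifq ein3 eil1. AT4G12545 had 4.41 RPKM in hls1 against 83.6 RPKM in pifq ein3 eil1. Reads of these similar genes may have been divided among them.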
